A study of Homo sapiens with 6 samples.

Results

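The mucin genes examined were MUC1, MUC2, MUC4, MUC5AC, MUC5B, MUC6, MUC13, MUC15, MUC16 and MUC20. They were chosen by gene name, and each matched 1 row of the deposited table, which gave 10 genes of 62703. RNA sequencing was performed on PANC-1, an established human pancreatic cancer cell line. The 3 DKK1-SE-/- samples carried a homozygous deletion, made with CRISPR/Cas9, of e1, an enhancer component of the super-enhancer DKK1-SE. The 3 DKK1-SE+/+ samples were PANC-1 cells that kept e1. The study describes a single homozygous subclone, from which the DKK1-SE-/- samples were therefore taken as replicates. P-values measure the spread between samples of 1 clone and of its control culture, and an effect of the deletion and a property of that clone cannot be told apart. The total expected count, an estimate of the reads assigned to genes, was between 16475810 and 21822314 per sample. Values of single samples are listed in the order of replicates 1, 2 and 3.

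Mucins are large glycoproteins whose serine- and threonine-rich repeats carry dense O-linked sugar chains. Membrane mucins span the cell surface and take part in signalling and in the barrier of duct cells, while gel-forming mucins are secreted and polymerize into mucus. In pancreatic ductal cancers and their precursor lesions the mucins that are made, such as MUC1, MUC4, MUC5AC and MUC16, are used to classify lesions or as markers.

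DKK1, the gene that DKK1-SE is named for and that the deletion leaves in place, was measured first as an indirect check of the labels. Its level in TPM, which scales transcripts to their length and to the library, was 229.21, 245.8 and 198.53 in the DKK1-SE+/+ samples, and 66.75, 79.75 and 82.66 in the DKK1-SE-/- samples. Every DKK1-SE-/- sample lay below every DKK1-SE+/+ sample, with a log2 fold change of -1.45 (standard error 0.112, Benjamini-Hochberg adjusted p = 6.16e-06 by edgeR's quasi-likelihood test). Fewer cells of a type and less RNA per cell cannot be told apart in these bulk samples, for DKK1 or for any gene below.

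The mucin genes were compared between the conditions with edgeR's quasi-likelihood test on the counts of all genes, and a gene was called when its adjusted p was under 0.05. Of the 10 mucin genes, 4 had enough counts to be tested, and 2 of these, MUC1 and MUC5B, were called higher in DKK1-SE-/- cells. Over all 15179 tested genes, 39.3% were called, 19.8% as higher and 19.5% as lower, so a call by itself was frequent in this comparison. At an unadjusted p under 0.05 with a log2 fold change of 1.2 or more in size, which is stricter than the same limit on the linear fold change that the study's text gives, both MUC1 and MUC5B were also called higher, against 8.66% of all tested genes in either direction and 4.96% as higher. With all 6 samples and no correction for GC content, no mucin gene was called lower by edgeR, DESeq2 or limma, and of the 4 tested genes 0 were lower at an unadjusted p under 0.05 in edgeR. Without a filter on low counts, 1 further gene, MUC16, was lower at an unadjusted p of 0.0288 and was not called. The median log2 fold change of the 4 tested mucin genes was 0.78, beside 0.03 for all tested genes. MUC5B passed the filter on low counts through DKK1-SE-/- samples, with the required level in 3 of 3 of them and in 1 of 3 DKK1-SE+/+ samples, so this count and this median describe the tested genes and are not support for a shift of the family.

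Among the membrane mucins, MUC1 (ENSG00000185499, chr1:155185824-155192916 on the minus strand of hg38) was the most abundant. MUC1 encodes a transmembrane mucin of the apical surface of duct cells whose cytoplasmic tail takes part in signalling. Its expected count was 142, 125 and 137 in the DKK1-SE+/+ samples, and 350, 365 and 242 in the DKK1-SE-/- samples. Its TPM was 7.53, 8.93 and 11.75 in the DKK1-SE+/+ samples and 24.68, 29.7 and 17.68 in the DKK1-SE-/- samples. All 3 DKK1-SE-/- samples were above all 3 DKK1-SE+/+ samples on both scales, and replicate 3 was the lowest of the DKK1-SE-/- samples. In CPM, the count relative to a library size scaled with edgeR's TMM method, MUC1 went from 6.97 ± 0.615 to 17.9 ± 4.08 (SD, n = 3). MUC1 rose 2.57-fold, a log2 fold change of 1.36 (standard error 0.184, 95% interval 0.95 to 1.77, adjusted p = 0.000271 by edgeR). The exact two-sided permutation test of its TPM gave p = 0.1, the smallest value that 3 samples against 3 allow. Another gene, ENSG00000273088, overlaps MUC1 on the same strand and had at most 7.33 counts in any sample, so the reads given to it were few beside those of MUC1.

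The RefSeq promoter table (build GRCh38.p14) matched 5 of the 10 mucin genes by symbol, namely MUC1, MUC2, MUC4, MUC13 and MUC16, with 7 entries in all. MUC5AC, MUC5B, MUC6, MUC15 and MUC20 were missing from it. The 250 bases before the RefSeq start of a MUC1 entry, chr1:155192916-155193165 on the minus strand, are shown because MUC1 is the called gene with an entry. Another MUC1 entry, chr1:155192910-155193159, is not shown and held TATAAA and GGGCGG at as many places. Capitals mark TATAAA and GGGCGG, which were looked for on both strands and were chosen after the sequence was seen.
MUC1: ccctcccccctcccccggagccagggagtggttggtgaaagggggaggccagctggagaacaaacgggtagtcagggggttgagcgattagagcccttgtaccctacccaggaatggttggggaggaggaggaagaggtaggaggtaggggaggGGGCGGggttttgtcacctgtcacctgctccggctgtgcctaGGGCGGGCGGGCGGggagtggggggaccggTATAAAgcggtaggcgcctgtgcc

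The MUC1 stretch held TATAAA at 1 place and GGGCGG at 4 places, of which 3 follow each other with shared letters between neighbours. Of the 35116 promoter entries, 10.7% held TATAAA and 42.6% held GGGCGG in the same 250 bases. TGANTCA, the core of the sites that AP-1 binds, was searched because the study concerns AP-1, and it reads the same way on both strands. It was in 6.57% of the promoter entries, and in the mucin genes it was in the entry of MUC13, in that of MUC2 and in 1 of the 2 entries of MUC16, while the entries of MUC1 and MUC4 did not hold these letters. The 3 matches are shown with 15 bases on each side and TGANTCA in capitals, from chr3:124934908-124934944 on the minus strand, chr11:1074708-1074744 on the plus strand and chr19:9010524-9010560 on the minus strand. A match describes the letters and was not measured as a bound site.
MUC13: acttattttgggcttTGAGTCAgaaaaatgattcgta
MUC2: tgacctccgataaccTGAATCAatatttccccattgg
MUC16: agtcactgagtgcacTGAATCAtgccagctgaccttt

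The other membrane mucins were near the limit of detection. MUC16 (ENSG00000181143, chr19:8848844-9010390, minus strand) encodes a very large mucin known as the source of the CA125 antigen. It had 9, 11 and 9 counts in the DKK1-SE+/+ samples, and 0, 3 and 5 counts in the DKK1-SE-/- samples. Every DKK1-SE-/- sample held fewer MUC16 counts than every DKK1-SE+/+ sample, and 1 of them held none. Summed over the samples of a condition, MUC16 had 29 counts (exact Poisson 95% interval 19.4 to 41.6) in DKK1-SE+/+ and 8 (3.45 to 15.8) in DKK1-SE-/- cells. Relative to the total counts, its level in DKK1-SE+/+ cells was 3.51 times that in DKK1-SE-/- cells (exact 95% interval 1.56 to 8.88). These intervals cover counting error only, not the spread between samples. MUC16 did not pass the filter, and without a filter its log2 fold change was -1.75 (standard error 0.802) and its adjusted p was 0.114 by edgeR. In TPM the MUC16 samples overlapped, with at most 0.07 in any sample.

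MUC4 (ENSG00000145113, chr3:195746765-195811973, minus strand) encodes a membrane mucin that binds the receptor ERBB2. It had 0 counts in each of the 3 DKK1-SE+/+ samples and 2, 1 and 7 counts in the DKK1-SE-/- samples. Counts of MUC4 were thus found in 3 of 3 DKK1-SE-/- samples, most of them in replicate 3. In TPM these samples had 0.04, 0.04 and 0.03, with replicate 3 the lowest. With a floor of 3 counts over the DKK1-SE+/+ samples together, the 10 counts of the DKK1-SE-/- samples were 3.44-fold higher per total count. This value leaves out counting error and is not a lower limit. Exact Poisson intervals of the sums, as for MUC16, were 0 to 3.69 in DKK1-SE+/+ and 4.8 to 18.4 in DKK1-SE-/- cells. The 3.44-fold value depends on replicate 3, which held 7 of the 10 counts, and was not computed without that sample. MUC4 did not pass the filter, and without a filter its adjusted p was 0.0507 by edgeR, just above the threshold.

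MUC20 (ENSG00000176945, chr3:195720884-195741123, plus strand), a membrane mucin gene that ends 5.64 kb from MUC4, had 4, 0 and 0 counts in the DKK1-SE+/+ samples and 3, 3 and 2 counts in the DKK1-SE-/- samples. The conditions overlapped in MUC20 counts, while in TPM the DKK1-SE-/- samples (0.16, 0.19 and 0.06) lay above the DKK1-SE+/+ samples (0.05, 0 and 0). Its summed counts were 4 and 8, and the ratio of DKK1-SE-/- to DKK1-SE+/+ cells per total count was 2.07 (exact 95% interval 0.554 to 9.38), so no difference was detectable at this depth. The non-coding gene MUC20-OT1 overlaps MUC20 on the same strand and held between 227.69 and 332.53 counts per sample (log2 fold change 0.15, adjusted p = 0.441 by edgeR). The few MUC20 counts are uncertain to the extent that reads were divided between both genes, which was not tested. The counts of MUC20 were whole in every sample, while those of MUC20-OT1 were not.

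MUC15 (ENSG00000169550, chr11:26559032-26572263, minus strand) and MUC13 (ENSG00000173702, chr3:124905442-124953819, minus strand), both membrane mucins, were nearly silent. MUC15 had 4 counts in DKK1-SE+/+ replicate 1 and 2 counts in DKK1-SE-/- replicate 3, a ratio of DKK1-SE-/- to DKK1-SE+/+ cells of 0.517 (exact 95% interval 0.0467 to 3.6). MUC13 had 3 counts in DKK1-SE+/+ replicate 1 and 2 counts in DKK1-SE-/- replicate 3, and no fold is given for it because both sums were at or under the floor of 3 counts. The other 4 samples held no count of MUC15 or of MUC13. A difference in either gene was not detectable at this depth.

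**Figure D1:**
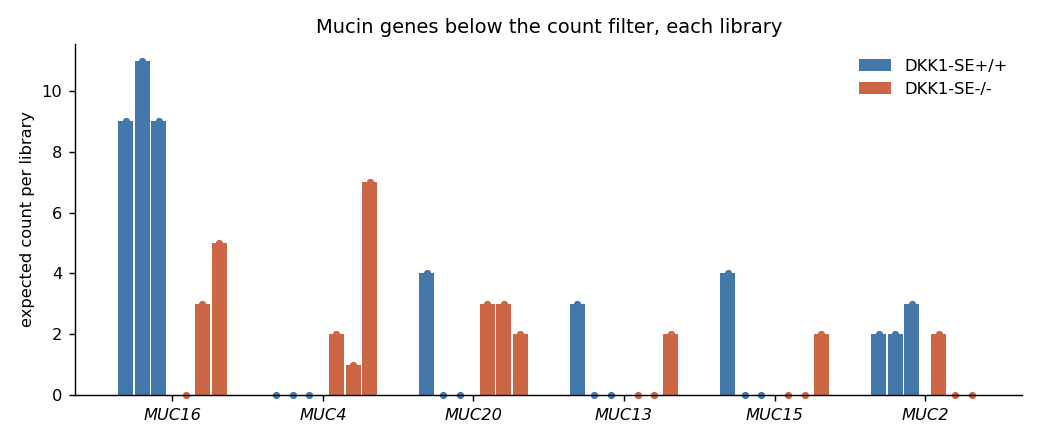
Expected counts per library (vertical axis) of the 6 mucin genes below the count filter. Each bar with its dot is 1 library, in the order of replicates 1 to 3 of DKK1-SE+/+ (blue) and then of DKK1-SE-/- (orange), and a dot on the axis is a count of 0. MUC16 lies between 9 and 11 in DKK1-SE+/+ and between 0 and 5 in DKK1-SE-/- libraries, while MUC4 has counts only in the 3 DKK1-SE-/- libraries.

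The 4 gel-forming mucin genes lie in a cluster on chromosome 11 that extends over 249 kb from MUC6 to MUC5B. MUC5B (ENSG00000117983, chr11:1223066-1262172, plus strand) encodes a gel-forming mucin of airway and gland mucus. Its expected count was 9, 9 and 19 in the DKK1-SE+/+ samples, and 97, 95 and 65 in the DKK1-SE-/- samples. The lowest DKK1-SE-/- sample of MUC5B held more counts than any DKK1-SE+/+ sample. The CPM of MUC5B went from 0.643 ± 0.312 to 4.81 ± 1.17 (SD, n = 3). MUC5B rose 7.47-fold, a log2 fold change of 2.90 (standard error 0.353, 95% interval 2.12 to 3.68, adjusted p = 0.000134 by edgeR).

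On the TPM scale MUC5B was 0.28, 0.04 and 0.07 in the DKK1-SE+/+ samples, and 0.67, 0.97 and 0.43 in the DKK1-SE-/- samples. The conditions did not overlap there either, but DKK1-SE+/+ replicate 1 stood apart. Its 9 counts gave 0.28 TPM, whereas the 9 counts of replicate 2 gave 0.04 TPM, which is 32.1 and 225 counts per TPM unit. The MUC5B call was not made on TPM. With limma on log2(TPM + 1) its log2 fold change was 0.57 (adjusted p = 0.0681), and on log2(TPM + 0.1) it was 1.86 (adjusted p = 0.0659), where a pseudocount lessens the change of a low gene. MUC5B-AS1 and MIR6744, which overlap MUC5B, and ANO3, which overlaps MUC15, had 0 counts in each of the 6 samples.

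MUC5AC (ENSG00000215182, chr11:1157953-1201138, plus strand), whose start lies before that of MUC5B with 21.9 kb between the genes, encodes the gel-forming mucin of the stomach surface and of many pancreatic precursor lesions. Its expected count was 144, 97 and 112 in the DKK1-SE+/+ samples, and 96, 69 and 77 in the DKK1-SE-/- samples. In CPM the conditions overlapped, with 6.36, 5.78 and 5.86 in DKK1-SE+/+ and 5.9, 3.52 and 4.28 in DKK1-SE-/- samples, since DKK1-SE-/- replicate 1 lay within the DKK1-SE+/+ range. In TPM MUC5AC did not overlap, with 0.48, 0.44 and 0.45 against 0.39, 0.23 and 0.32 (exact two-sided permutation p = 0.1, the smallest possible).

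By edgeR the log2 fold change of MUC5AC was -0.40 (standard error 0.21, 95% interval -0.86 to 0.06, adjusted p = 0.152), so it was not called. It was called lower with a GC-content offset, with a log2 fold change of -0.70 (adjusted p = 0.0118), and without DKK1-SE-/- replicate 1, with -0.64 (adjusted p = 0.0292), while its adjusted p ranged from 0.0118 to 0.512 over all alternatives. The GC content of the tested mucin genes was high, at 64.5% for MUC5B, 61.6% for MUC6, 60.3% for MUC5AC and 58.6% for MUC1, above that of 96%, 90.2%, 86.7% and 82% of tested genes. Among tested genes that were not called, the log2 fold change went up with GC content (rho = 0.31 by Spearman's method, over genes, which do not count as independent replicates). With the GC-content offset MUC1 and MUC5B were called, with log2 fold changes of 1.12 and 2.53.

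MUC6 (ENSG00000184956, chr11:1012823-1036718, minus strand) encodes the gel-forming mucin of gastric glands. It had 45, 21 and 33 counts in the DKK1-SE+/+ samples, and 26, 45 and 33 counts in the DKK1-SE-/- samples. The conditions overlapped fully, and the log2 fold change of 0.20 (standard error 0.3, 95% interval -0.46 to 0.86, adjusted p = 0.628 by edgeR) was smaller than its error; with the GC-content offset its sign turned, at -0.11. MUC2 (ENSG00000198788, chr11:1074875-1110511, plus strand), the gel-forming mucin of intestinal goblet cells, had 2, 2 and 3 counts in DKK1-SE+/+ samples and 2, 0 and 0 counts in DKK1-SE-/- samples. MUC2 did not pass the filter, and its ratio of DKK1-SE-/- to DKK1-SE+/+ cells was 0.295 (exact 95% interval 0.0299 to 1.55), so no difference was detectable. Members of the gel-forming group are related in sequence and rich in repeats, and their counts are uncertain to the extent that reads were divided between them. The expected counts of these genes were whole in every sample, while 32.3% of the nonzero values of all genes were not. How shared reads were handled was not tested.

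**Figure D2:**
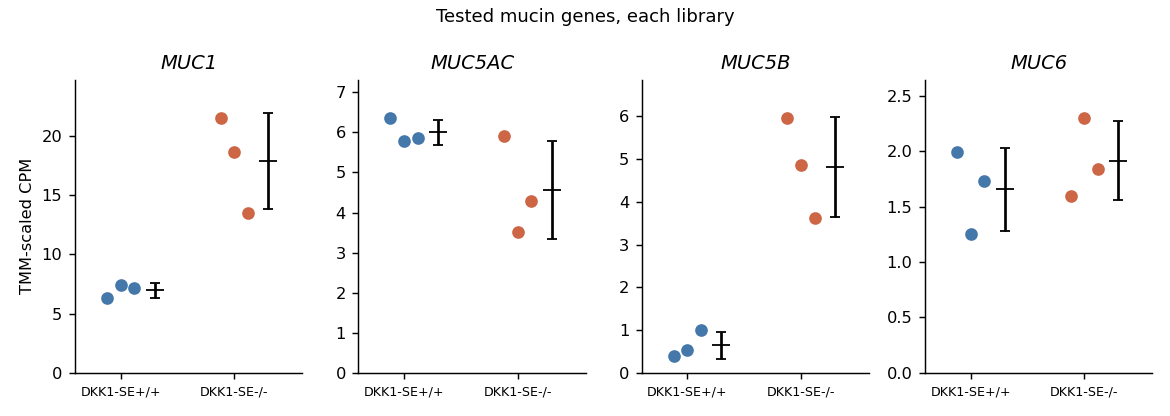
TMM-scaled CPM (vertical axis, from 0, on a scale of its own for each gene) of the 4 tested mucin genes in each library. Dots are libraries, and the black mark with bars is the mean with the SD of 3 libraries. MUC1 and MUC5B are separate between DKK1-SE+/+ (blue) and DKK1-SE-/- (orange), while MUC5AC and MUC6 overlap.

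The order of the mucin levels, compared in TPM because it is per length, differed between the conditions. In DKK1-SE+/+ cells MUC1 had the highest level (9.4 ± 2.15, SD, n = 3), followed by MUC5AC (0.457 ± 0.0208), MUC6 (0.277 ± 0.0611) and MUC5B (0.13 ± 0.131). The samples of MUC6 and MUC5B overlapped in this order, while those of MUC5AC lay above both. In DKK1-SE-/- cells MUC1 (24 ± 6.04) was followed by MUC5B (0.69 ± 0.271), MUC5AC (0.313 ± 0.0802) and MUC6 (0.29 ± 0.0557). There the samples of MUC5B lay above those of MUC5AC and MUC6, which overlapped each other. In counts this order of MUC5B and MUC5AC held in DKK1-SE-/- replicates 1 and 2 (97 and 95 against 96 and 69). It did not hold in replicate 3 (65 against 77). Nearly the same length is listed for both genes, 17911 and 17448 bases. In the DKK1-SE-/- samples MUC5B had 145, 97.9 and 151 counts per TPM unit and MUC5AC had 246, 300 and 241, and the reason was not tested. Except for MUC13 in DKK1-SE-/- replicate 3, at 0.4, the 6 mucin genes that were not tested were at most 0.19 TPM in any sample.

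In counts MUC5B came level with MUC5AC in DKK1-SE-/- cells and did not clearly pass it. The share of MUC5B in the summed counts of both genes was 5.88%, 8.49% and 14.5% in the DKK1-SE+/+ samples, and 50.3%, 57.9% and 45.8% in the DKK1-SE-/- samples. The conditions did not overlap in this share, and in DKK1-SE-/- replicate 3 MUC5AC still had more counts than MUC5B. The summed TPM of the 10 mucin genes was 9.01, 9.67 and 12.6 in the DKK1-SE+/+ samples, and 26.2, 31.5 and 19.4 in the DKK1-SE-/- samples. MUC1 made up between 83.6% and 94.4% of this sum in each sample, so the sum followed MUC1. The 4 gel-forming genes together reached 1.12, 0.72 and 0.83 TPM in DKK1-SE+/+ samples and 1.32, 1.54 and 1.05 in DKK1-SE-/- samples, which overlapped.

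The genes around the mucin genes were examined for changes at the same places. Within 200 kb of a mucin gene, 51 other genes were tested, of which 18 were called higher and 5 lower by edgeR, with a median log2 fold change of 0.33. Over all tested genes 19.8% were called higher and 19.5% lower, with a median of 0.03. With the GC-content offset 10 of the 51 neighbours were called higher, beside 3042 of all 15179 tested genes, which is nearly the same share. Around MUC5B 3 genes were tested, and TOLLIP, 12.2 kb away, was called higher with a log2 fold change of 0.38 (adjusted p = 0.0336), a smaller value than the 2.90 of MUC5B. TOLLIP kept its call in 4 of 15 alternatives, and with the GC-content offset it had 0.12 (adjusted p = 0.2, range over alternatives 0.00348 to 0.34). Within 200 kb of MUC6 9 genes were tested, of which 3 were called higher. Of the 23 genes tested around MUC1, 6 were called higher and 4 lower, with a median of 0.28.

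The 4 neighbours with the smallest p-values were TNK2, HEG1, THBS3 and UMPS. THBS3, which lies 2.67 kb from MUC1 and encodes a thrombospondin of the matrix, went from 21.5 ± 0.541 to 10.6 ± 0.831 CPM (SD, n = 3), a log2 fold change of -1.02, opposite in direction to MUC1. TRIM46, the tested gene nearest to MUC1 at 0.853 kb, was called higher like MUC1, with a log2 fold change of 0.88 (adjusted p = 0.0282 by edgeR), but lost its call with the GC-content offset (0.55, adjusted p = 0.107), with limma on TPM and when any of 4 single samples was left out. TNK2, a tyrosine kinase gene 51.4 kb from MUC4, rose with a log2 fold change of 1.51 (adjusted p = 5.29e-05 by edgeR). Near MUC13 all 5 tested genes were called higher, among them HEG1 with 0.95 and UMPS with 0.72 by edgeR, while MUC13 itself was almost without counts in both conditions. UMPS was not called by limma on TPM (adjusted p = 0.281 on log2(TPM + 1) and 0.26 on log2(TPM + 0.1)), where its samples overlapped. The number of neighbours called higher was 4 with limma on either TPM scale, 10 with the GC-content offset and between 7 and 25 when 1 sample was left out. The lower count was between 2 and 6 when 1 sample was left out.

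Genes that act with mucins were examined as lists, whose counts stand beside the 39.3% of all tested genes that were called and their median of 0.03. Of 13 further mucin genes and genes grouped with mucins, 4 were tested, with a median log2 fold change of -0.42, and 0 were called higher and 1 lower by edgeR. At an unadjusted p under 0.05 the same 0 were higher. MCAM, an adhesion molecule also named MUC18, went from 101 to 28.2 TPM, with a log2 fold change of -1.47 (adjusted p = 2.54e-06 by edgeR). CD164, a sialomucin, had -0.29 and MUC12 had -0.55, both not called. MUC3A had 0.22 and was not called. The signs of MUC3A, MUC12 and CD164 turned under some alternatives.

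The GALNT enzymes add the first sugar of the O-linked chains of mucins. Of 18 GALNT genes 11 were tested, of which 2 were called higher and 4 lower (54.5% in all) and 5 were not called, with a median log2 fold change of -0.05. The higher count was 1 when any sample other than DKK1-SE-/- replicate 3 was left out, and also with limma, the replicate block or library size alone, and the lower count was 2 with limma on log2(TPM + 1). With an unadjusted p under 0.05 and the limit on log2 fold change the counts were 1 higher and 0 lower. GALNT6 went from 2.93 to 12.9 TPM, with a log2 fold change of 2.07 (adjusted p = 4.63e-06 by edgeR), the highest among the tested genes of this list. GALNT7 (-0.74), GALNT18 (-0.69) and GALNT1 (-0.64) were called lower, GALNT1 not with limma on log2(TPM + 1) (adjusted p = 0.0557, range over alternatives 7.13e-06 to 0.0557). With the GC-content offset the log2 fold changes of GALNT7 and GALNT1 were -0.35 and -0.25.

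Of 18 genes that extend or cap the sugar chains of mucins 9 were tested, and 4 were called higher and 3 lower (77.8% in all), with a median of 0.16, where 1 of the 4 and 1 of the 3 passed the filter through the condition in which it was higher. The higher count was 2 without DKK1-SE+/+ replicate 1, without DKK1-SE-/- replicate 2 or with the GC-content offset and 1 with limma, and the lower count was 1 without DKK1-SE+/+ replicate 1 or 3 or DKK1-SE-/- replicate 2 and with limma on log2(TPM + 1). With an unadjusted p under 0.05 and the limit on log2 fold change both counts were 1. C1GALT1C1, the chaperone of the enzyme that makes the core 1 chain, was lower, with a log2 fold change of -0.86. The sialyltransferase genes ST3GAL2 (0.54) and ST3GAL1 (0.44) were called higher, and ST6GALNAC2 (-0.80) lower, although limma on log2(TPM + 1) called none of these 3, with adjusted p of 0.207, 0.4 and 0.0629. With the GC-content offset C1GALT1C1 had -0.46, ST3GAL2 had 0.28 and ST3GAL1 had 0.26.

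Of 20 goblet cell and secretory genes that are known beside gel-forming mucins, 8 were tested, of which 4 were called higher and 0 lower by edgeR (50% in all), with a median log2 fold change of 0.74. At an unadjusted p under 0.05, and by DESeq2 or limma, 0 were lower as well, while FOXA2 was called lower with the GC-content offset and CLCA1 without a filter. BCAS1 and CDX2 passed the filter through DKK1-SE-/- samples, with the required level in 3 of 3 of them and in 0 of 3 DKK1-SE+/+ samples, so this count and median describe the tested genes only, and with limma 2 were called higher. AGR3, TFF2, TFF3 and ATOH1 had no counts in any sample. BCAS1 went from 0.173 to 1.94 TPM, with a log2 fold change of 3.67 (adjusted p = 9.83e-06). CREB3L1, a transcription factor of secretory cells, rose with 1.91 (adjusted p = 6.25e-05). On the log2(TPM + 1) scale, where the pseudocount lessens the change of a low gene, BCAS1 had 1.32 and CREB3L1 had 1.08. FCGBP, a mucus protein found with MUC2, had 0.86 (adjusted p = 0.00157), and CDX2, an intestinal transcription factor, had 1.51 (adjusted p = 0.0218), but neither was called on TPM. With the GC-content offset FCGBP had 0.55. CDX2 also lost its call with the GC-content offset and replicate block together (adjusted p = 0.056) and without DKK1-SE+/+ replicate 1 or 3 or DKK1-SE-/- replicate 2 (adjusted p = 0.105, 0.0778 and 0.114). AGR2, a chaperone of gel-forming mucins and the most abundant gene of the list, was not called, at -0.20, and its sign turned with the GC-content offset, at 0.03.

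All 12 genes for binding partners, signalling partners or sheddases of membrane mucins were tested, and 1 was called higher and 4 lower (41.7% in all, near the share of all tested genes), with a median of 0.08. When 1 sample was left out the higher count ranged from 0 to 3 and the lower count from 4 to 6, with 0 higher without DKK1-SE+/+ replicate 1 or 2, 2 without DKK1-SE-/- replicate 1 and 3 without DKK1-SE-/- replicate 3. The higher count was 0 with limma and 2 with the GC-content offset, and with an unadjusted p under 0.05 and the limit on log2 fold change 0 were higher and 2 lower. MMP14, a protease that can release MUC1 from the cell surface, went from 3.51 to 0.263 TPM, with a log2 fold change of -3.76 (adjusted p = 9.64e-06 by edgeR), and passed the filter through DKK1-SE+/+ samples. On the log2(TPM + 1) scale it had -1.83. ERBB3 had -1.84 (adjusted p = 0.000415), but on log2(TPM + 1) it had -0.24 and was not called by limma. ADAM10 (-0.76) and CTNNB1 (-0.64), whose product binds the MUC1 tail, were called lower, and ADAM10 had -0.31 with the GC-content offset. ERBB2, the receptor that MUC4 binds, was called higher, at 0.49 (adjusted p = 0.0119 by edgeR) and at 0.24 with the GC-content offset, but lost its call with limma on log2(TPM + 1) and log2(TPM + 0.1) (adjusted p = 0.223 and 0.219), with the GC-content offset and replicate block together (0.0742) and without DKK1-SE+/+ replicate 1 (0.0854) or 2 (0.061).

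Markers of cell types were measured beside the mucin genes. The duct and epithelial markers KRT7, KRT8, KRT18, KRT19, EPCAM and CDH1 were all tested, and in DKK1-SE+/+ cells KRT8 (957 TPM), KRT18 (856 TPM) and KRT19 (53.9 TPM) lay above KRT7 (13.3 TPM), EPCAM (4.17 TPM) and CDH1 (1.59 TPM), while VIM, a mesenchymal filament, reached 4160 TPM there. The summed TPM of the 6 epithelial markers, led by KRT8, was 1850, 1890 and 1920 in the DKK1-SE+/+ samples and 3150, 3090 and 2660 in the DKK1-SE-/- samples. It was higher in every DKK1-SE-/- sample, in the same direction as MUC1. KRT19 (1.83), KRT8 (0.86) and KRT18 (0.67) were called higher and EPCAM (-0.67) lower. EPCAM lost its call in 10 of 15 alternatives, and KRT18 had 0.40 with the GC-content offset. KRT7 (0.47, adjusted p = 0.0785 by edgeR) and CDH1 (-0.43, adjusted p = 0.307 by edgeR) were not called.

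The summed TPM of the 4 mesenchymal markers, led by VIM, was 3780, 4240 and 4550 in the DKK1-SE+/+ samples and 2820, 2540 and 2710 in the DKK1-SE-/- samples. CDH2 (-3.85), ZEB1 (-1.27) and VIM (-0.47) were called lower and FN1 (2.70) higher. FN1 was not called by limma on log2(TPM + 1) (0.34, adjusted p = 0.476) or on log2(TPM + 0.1) (0.48, adjusted p = 0.481). Its samples overlapped in TPM. The part of these marker changes in the values of MUC1 and MUC5B was not tested.

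Of the markers of other cell types, SYP and CD68 had enough counts to be tested. The 5 acinar markers, with CTRB1 the most abundant, summed to at most 0.37 TPM in any sample, with CELA3A and AMY2A at 0. The 3 endothelial markers, led by VWF, summed to at most 0.22 TPM and the 5 fibroblast markers, led by ACTA2, to at most 1.85 TPM. The 5 endocrine markers summed to between 4.85 and 6.78 TPM, nearly all of it SYP (log2 fold change 0.23, not called), with INS and SST at 0. SYP had 0.03 with the GC-content offset and 0.11 to 0.38 when 1 sample was left out. Of the immune markers CD68, a lysosomal protein also made outside immune cells, was called higher at 0.76 (0.50 with the GC-content offset) and went from 43.5 to 66.6 TPM. PTPRC and CD3E averaged at most 0.02 TPM in either condition.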

How the data were processed

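The authors had stranded mRNA libraries of total RNA sequenced, and their processing notes name the build hg38. The aligner, the counting program and the annotation are not given in the sources used here. The authors deposited an expected count per gene and sample, of which 32.3% of the nonzero values were not whole, and TPM, normalized by the authors within each library. Gene names and listed gene lengths were read from the same table. Its group means, functional annotation and the authors' comparison columns (fold change, log2 fold change, p-values and calls) were not used.

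Counts were rounded and analysed with edgeR 4.0.16 (R 4.3.3). Genes were filtered with filterByExpr (minimum count 10, here a CPM of about 0.546 in 3 samples) and normalized with TMM (factors 0.939 to 1.039), and conditions were compared with the quasi-likelihood F test without covariates. Adjustment for multiple tests followed Benjamini and Hochberg over all 15179 genes. Fits were tested on simulated data. DESeq2 1.42.0, limma 3.58.1 on TPM, other scaling, no filter, the replicate number as a block, a GC-content offset in 40 bins and leaving out each sample were alternatives. Protein features were not analysed here. Genes were placed with GENCODE 44, and permutation tests and intervals used scipy 1.17.1.

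The members and lists were chosen with earlier results of these data known. Named genes were the 10 mucin genes, every tested further mucin, the 4 tested genes with the smallest p in each other list, the 4 such neighbours within 200 kb, DKK1 and genes overlapping a mucin gene; TOLLIP, TRIM46, AGR2, ERBB2, FOXA2, CLCA1 and markers or genes named for being at 0 were chosen after their values were seen. A marker gene of the lists is not reported here.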

Additional observations from a re-analysis of the deposited data

How the results depend on the processing

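The direction and call of MUC1 held in 15 of 15 alternatives, with log2 fold changes from 1.11 to 1.51. MUC5B was higher in 15 of 15 and called in 13. With limma on log2(TPM + 1) and on log2(TPM + 0.1), 1 mucin gene was called higher in place of 2. With the GC-content offset, 1 was called lower in place of 0 (MUC5AC, -0.70), and the log2 fold change of MUC6 turned to -0.11. Without 1 sample, 2 mucin genes were called higher in each case and 0 to 1 lower, the 1 being MUC5AC without DKK1-SE-/- replicate 1 (-0.64, adjusted p = 0.0292).

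Over all tested genes, the 3013 higher and 2959 lower calls became 1127 and 1893 with limma on log2(TPM + 1), and 1206 were higher on log2(TPM + 0.1). The limma fits used a minimum mean TPM of 0.1 and tested 24160 genes in place of 15179, so these counts are over different genes. An unadjusted p under 0.05 with a limit of 1.2 on the log2 fold change gave 753 and 561. The same limit on the linear fold change, as the study's text words it, was added after seeing the data and gave 3696 and 3531, with 2 mucin genes higher and 0 lower. Without 1 sample the calls by edgeR at an adjusted p under 0.05 ranged from 2001 to 3703 higher and from 2055 to 3855 lower, with 2001 without DKK1-SE+/+ replicate 1. In the 5 other lists, 11 genes were called higher and 12 lower. These became 4 and 7 with limma on log2(TPM + 1), 4 higher on log2(TPM + 0.1), 5 and 4 with the log2 limit, and 7 to 13 and 9 to 15 without 1 sample, 7 without DKK1-SE+/+ replicate 1. Of the neighbours, 18 were called higher and 5 lower. These became 4 and 3 with limma on log2(TPM + 1), 4 higher on log2(TPM + 0.1), 10 higher with the GC-content offset, and 4 and 0 with the log2 limit. Without 1 sample, 7 to 25 neighbours were higher and 2 to 6 lower; 7 were higher without DKK1-SE+/+ replicate 1 or 2, 10 without DKK1-SE+/+ replicate 3 or DKK1-SE-/- replicate 1, and 11 without DKK1-SE-/- replicate 2, while 2 were lower without DKK1-SE+/+ replicate 2 or 3 and 3 without DKK1-SE-/- replicate 2.

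The log2 fold change of MUC3A turned to -0.03 and -0.08 with limma on log2(TPM + 1) and log2(TPM + 0.1), and to -0.15 without DKK1-SE-/- replicate 1 (range without 1 sample -0.15 to 0.37). That of MUC12 turned to 0.00 and 0.02 with limma, and those of CD164 and AGR2 to 0.15 and 0.03 with the GC-content offset. CD164 was called lower without DKK1-SE-/- replicate 3 (-0.46, adjusted p = 0.00754). ST3GAL1 lost its call without DKK1-SE+/+ replicate 1 (0.38, adjusted p = 0.0656), and ST6GALNAC2 without DKK1-SE+/+ replicate 1 (-0.73, adjusted p = 0.0857), DKK1-SE+/+ replicate 3 (-0.80, 0.0603) or DKK1-SE-/- replicate 2 (-0.68, 0.0814). Of 36 called genes followed through the alternatives, 36 kept their direction in each and 22 their call. The causes were not tested.

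The replicate numbers did not pair the samples, since the deviations of same-numbered samples correlated at -0.12, -0.07 and -0.11 across genes. With the number as a replicate block, 2 mucin genes were called higher and 0 lower; with the GC-content offset and the replicate block together, 1 was lower (MUC5AC, -0.70), MUC6 was at -0.11, CD164 at 0.15, AGR2 at 0.03, and 9 neighbours were called higher. At this depth 6 of the 10 mucin genes had too few counts for a test, and low expression and limited depth were not told apart.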
